A study of Mus musculus with 40 samples.

Results

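The genes described here code for the signalling chain of the B cell receptor, 35 genes named from knowledge of the pathway. A member was taken as every probe whose platform annotation carries its symbol, and the probes of a gene were averaged. This gave 34 of the 35 members among 21892 genes measured, from 52 probes, of which 16 members had several probes and 18 had 1. Cd38 was not analysed here. The members were split by role into 4 receptor subunits and co-receptors (Cd79a, Cd79b, Cd81, Ptprc), 21 activating kinases, adaptors and effectors, and 9 inhibitory receptors, phosphatases and ligases (Cd22, Cd72, Siglecg, Pirb, Inpp5d, Ptpn6, Ptpn22, Cblb, Csk).

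The B cell receptor is a membrane immunoglobulin that signals through Cd79a and Cd79b, whose tails are phosphorylated by Src family kinases and then bind the kinase Syk. Syk phosphorylates the adaptor Blnk, on which Btk and the phospholipase Plcg2 meet, and from there calcium, protein kinase C beta, the Bcl10 and Malt1 complex, NFAT factors and phosphoinositide 3-kinase carry the signal on. Inhibitory receptors such as Cd22 and Cd72 recruit the phosphatase Ptpn6, and the lipid phosphatase Inpp5d removes the product of phosphoinositide 3-kinase. In spleen, this chain sets survival, activation and tolerance of B cells. Dock10, the gene knocked out in the mice, is a guanine nucleotide exchange factor.

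RNA of spleen B cells of 20 C57BL/6 mice of 12 weeks was measured on 40 arrays with 2 dyes. Freshly isolated cells made up WT_Pre (wild-type) and KO_Pre (Dock10 knockout), with 10 mice per genotype. From mice 6 to 10 in both genotypes, cells were in addition cultured for 18 h in RPMI-1640 with 10% fetal calf serum. Cultures without cytokine are WT_Ctrl and KO_Ctrl (n = 5 per group), and those given 10 ng/ml of mouse recombinant IL-4, which T helper cells secrete and B cells respond to, are WT_IL4 and KO_IL4 (n = 5 per group). B cells were isolated by removing other cell types with magnetic beads, and the Dock10 allele is not given in the sources used here. Each test sample, in Cy5, was set against 1 pool, in Cy3, which the sources used here describe as KO_Pre RNA of mice 6 to 10. By that description, a value is a log2 ratio to knockout cells before culture. It gives no level within a sample, so ratios are compared between arrays and never between genes, and the label "B cell" cannot be checked by absolute marker levels. In bulk RNA, fewer B cells in a preparation and less of an RNA per B cell cannot be told apart.

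Some arrays stood apart or went against their labels. Arrays before culture numbered 1 to 4 and 10, in both genotypes, had Xist log2 ratios of 4.74 to 5.92, and the other 30 arrays -1.59 to 0.85. The cultured arrays numbered 10 are among those 30, so the arrays before culture numbered 10 do not match the cultured arrays of the same number, and results that rest on them are given with and without them. KO_Pre 10 also conflicts with the described pool, since its Xist log2 ratio was 4.989. RNA that made up an equal share of the pool could not lie that far above it. Which label or description is wrong was not tested. Array medians over all genes lay between -0.278 and 0.003. The SD over all genes was 0.289 to 0.848 before culture, 0.769 to 0.993 in WT_Ctrl and 0.909 to 1.18 in KO_Ctrl. Dock10 itself had log2 ratios of -0.24 to 0.62 in WT_Pre and -0.41 to 0.16 in KO_Pre, of -0.89 to -0.36 in WT_Ctrl and -1.56 to -0.72 in KO_Ctrl, and of 1.04 to 1.80 in WT_IL4 and 0.26 to 0.83 in KO_IL4. These groups separate without overlap with IL-4 and not in the other states. Where the deletion lies relative to what the array measures of Dock10 is not given in the sources used here, so Dock10 does not check the genotype labels.

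The promoters of members that fell in the cultured knockout cells are shown because the members moved together. RefSeq promoters (assembly GRCm38.p6, 250 bases before to 50 after the start of the transcript) matched 29 of the 34 members, and Blk, Cd79b, Lat2, Malt1 and Nfatc1 had no match. Those of Cd79a (chr7:24897247-24897546, plus strand), Blnk (chr19:40994172-40994471, minus strand), Bank1 (chr3:136326017-136326316, minus strand) and Siglecg (chr7:43407989-43408288, plus strand, the first of its entries) follow, 5′ to 3′ along the gene. Capitals mark matches, on either strand, to any of 5 motifs that were searched. These were the octamer ATGCAAAT, an ETS motif (GAGGAA) and an EBF motif (TCCC, any 2 bases, GGGA). A STAT6 motif (TTC, any 4 bases, GAA) and an interferon element (GAAA, any 2 bases, GAAA) made up the rest. Other letters that ETS factors can bind were not searched, so they are not marked.
Cd79a: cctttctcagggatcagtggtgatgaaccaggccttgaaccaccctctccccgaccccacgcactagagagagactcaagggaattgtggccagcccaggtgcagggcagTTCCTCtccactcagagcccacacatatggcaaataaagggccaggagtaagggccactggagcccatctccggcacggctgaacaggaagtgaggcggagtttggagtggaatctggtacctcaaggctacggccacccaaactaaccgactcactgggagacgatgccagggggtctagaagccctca
Blnk: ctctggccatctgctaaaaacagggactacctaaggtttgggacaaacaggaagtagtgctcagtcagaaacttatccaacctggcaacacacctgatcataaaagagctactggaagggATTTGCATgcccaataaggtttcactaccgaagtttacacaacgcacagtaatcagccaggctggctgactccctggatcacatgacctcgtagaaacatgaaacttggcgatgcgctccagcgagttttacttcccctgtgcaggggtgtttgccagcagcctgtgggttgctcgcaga
Bank1: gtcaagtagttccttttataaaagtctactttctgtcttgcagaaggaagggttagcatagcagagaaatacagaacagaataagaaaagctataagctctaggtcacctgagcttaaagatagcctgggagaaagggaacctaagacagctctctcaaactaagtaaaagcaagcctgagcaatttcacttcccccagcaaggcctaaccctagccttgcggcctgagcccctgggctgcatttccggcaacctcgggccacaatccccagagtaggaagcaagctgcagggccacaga
Siglecg: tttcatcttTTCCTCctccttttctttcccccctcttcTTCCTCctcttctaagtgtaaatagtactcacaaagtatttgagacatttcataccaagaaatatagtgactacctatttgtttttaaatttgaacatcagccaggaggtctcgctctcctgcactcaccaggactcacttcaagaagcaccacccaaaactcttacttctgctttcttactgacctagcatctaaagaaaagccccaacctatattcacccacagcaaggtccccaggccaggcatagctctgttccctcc
The Cd79a promoter held 1 match to GAGGAA, the Siglecg promoter 2 and the Blnk promoter 1 octamer, while Bank1 matched none of the 5. The 29 promoters are of members called lower in knockout cells and of members not called. GAGGAA was present in 15 of them, or 51.7%, against 28.3% of all 27025 RefSeq promoters of this length. The octamer was present in 2 members (Blnk and Prkcb) and 1.75% of all promoters, the EBF motif in 2 (Cd22 and Vav3) and 0.914%, the STAT6 motif in 3 (Inpp5d, Plcg2 and Vav3) and 6.99%, and the interferon element in 0 members and 3.49%. These are letter matches within 300 bases, some of the motifs can overlap, and no test was made of them.

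**Figure D1:**
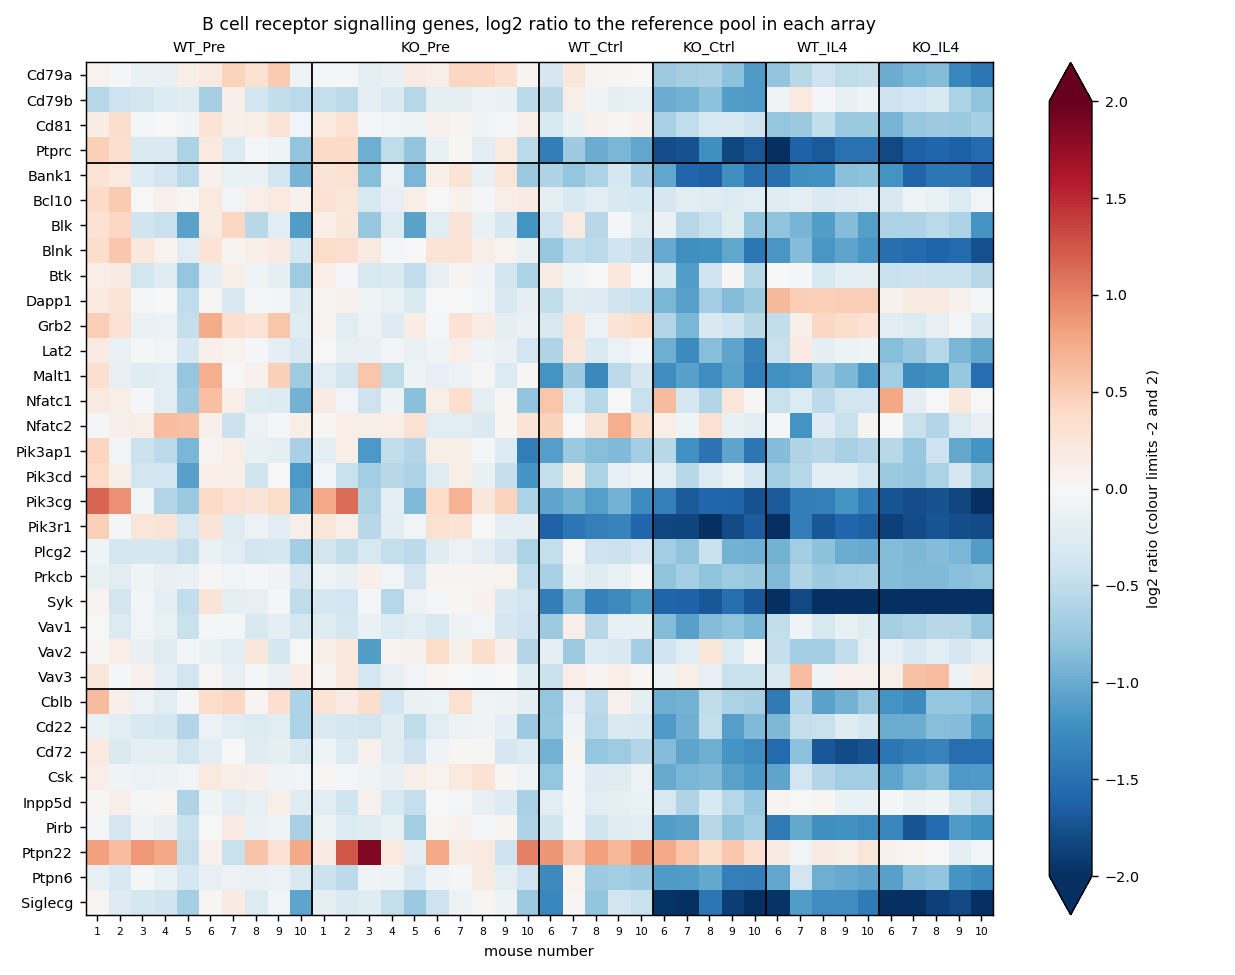
Heat map of the log2 ratio to the common reference for the 34 members (rows, grouped by role) in the 40 arrays (columns, grouped by genotype and state). Before culture most members lie near 0, and after culture most are below it, with the median over members of the group mean at -0.29 in WT_Ctrl and -0.85 in KO_Ctrl.

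Across the 34 members, the median of the group mean log2 ratios was -0.12 in WT_Pre and -0.14 in KO_Pre, -0.29 in WT_Ctrl and -0.85 in KO_Ctrl, and -0.67 in WT_IL4 and -0.84 in KO_IL4. The SD of a member within a group was usually small, with a median over members of 0.15 in KO_IL4 to 0.24 in WT_Pre and WT_Ctrl. The widest spreads before culture were those of Pik3cg in WT_Pre (SD 0.71, n = 10) and Ptpn22 in KO_Pre (SD 0.70, n = 10). Arrays also differed as a whole for these genes: WT_Ctrl 6 was the lowest of its group for 22 of 34 members and WT_Ctrl 7 the highest for 18, and KO_IL4 10 was the lowest of its group for 18.

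Before culture, the knockout and wild-type cells were compared to ask whether loss of Dock10 alters the resting pathway. No member passed the test at an adjusted p under 0.05 (limma over all 21892 genes), against 0% of all genes. At an unadjusted p under 0.05, 0 of the 34 members and 892 genes, 4.07%, passed. The differences, knockout minus wild-type on the log2 scale, ran from -0.20 (Grb2, an adaptor to the Ras pathway) to 0.11 (Ptpn22, a phosphatase that acts on Src family kinases), with a median of -0.03 over members and 0.02 over all genes. The 2 groups overlapped for all 34 members, while 0.00457% of all genes separated them. Without the arrays numbered 10, 0 members were called and the median over members was -0.04.

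The receptor subunits lay close together before culture. Cd79a had log2 ratios from -0.15 to 0.52 (median 0.10) in WT_Pre and from -0.20 to 0.41 (median 0.08) in KO_Pre, a difference of -0.02 with a 95% interval of -0.24 to 0.20. Cd79b had -0.67 to 0.10 (median -0.40) and -0.57 to -0.12 (median -0.24), a difference of 0.07 (-0.13 to 0.27). For both genes the interval excludes changes of the size seen after culture. The kinases Syk (-0.03, interval -0.25 to 0.19) and Btk (0.00, -0.27 to 0.27), the adaptor Blnk (0.03, -0.19 to 0.24) and Plcg2 (-0.04, -0.21 to 0.13) gave equally narrow intervals. So did Cd22 (0.00, -0.19 to 0.19) and Ptpn6 (-0.02, -0.19 to 0.16). The intervals were wider for Pik3cg (0.03, -0.58 to 0.65) and Ptpn22 (0.11, -0.44 to 0.65), so moderate differences in these 2 genes were not detectable here. Macrophage markers had a median difference of -0.64 over 14 genes and neutrophil markers of -0.76 over 10, with 0 called, as for all genes. At an unadjusted limma p under 0.05, 10 of 14 macrophage and 4 of 9 dendritic cell markers passed, against 4.07% of all genes. So did 2 of 8 NK cell, 1 of 10 neutrophil and 1 of 6 erythroid markers, and 0 of the T cell and B cell markers. The part of these markers in the members' values was not tested. Dock10 differed by -0.38 and Fcer2a, the low-affinity IgE receptor CD23, by 0.00, neither called (adjusted p = 1 for both).

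After 18 h without cytokine, 22 of the 34 members had lower ratios in the knockout cells and 0 had higher ones. Over all genes, 8.43% were called lower, 6.87% higher and 15.3% in either direction. The members called were all 4 receptor genes, 11 of 21 activating genes and 7 of 9 inhibitory genes, so calls were made in all 3 roles. The median difference was -0.48 over members and 0.05 over all genes, and by role it was -0.72 for receptor, -0.42 for activating and -0.51 for inhibitory members. The groups did not overlap, with knockout lower, for 15 members, against 6.43% of all genes.

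Among receptor genes, Cd79b, the Ig-beta subunit, had log2 ratios of -0.55, 0.11, -0.09, -0.18 and -0.16 in WT_Ctrl 6 to 10 and of -1.0, -0.95, -0.82, -1.12 and -1.13 in KO_Ctrl 6 to 10. Every knockout array was below every wild-type array, and the wild-type array nearest to them was number 6. The difference was -0.83 (SE 0.13, adjusted p = 6.74e-05). Cd79a, the Ig-alpha subunit, had -0.34, 0.23, 0.06, 0.02 and 0.01 in WT_Ctrl and -0.73, -0.66, -0.65, -0.82 and -1.13 in KO_Ctrl. Again the groups did not overlap, and the difference was -0.80 (SE 0.13, adjusted p = 0.000119). Ptprc, the phosphatase CD45 that keeps Src family kinases active, differed by -0.64 (SE 0.16, adjusted p = 0.00756) with overlap through WT_Ctrl 6 and KO_Ctrl 8. Cd81, a tetraspanin of the B cell surface, differed by -0.39 (SE 0.09, adjusted p = 0.00341), also with overlap.

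Among activating genes, Lat2, a transmembrane adaptor related to LAT of T cells, had -0.60, 0.23, -0.29, -0.11 and -0.03 in WT_Ctrl and -0.97, -1.28, -0.85, -1.06 and -1.34 in KO_Ctrl. The groups were fully apart, with a difference of -0.94 (SE 0.14, adjusted p = 2.4e-05). Bank1, a scaffold that ties Src family kinases to calcium release, differed by -0.79 (SE 0.19, adjusted p = 0.00365), and Blnk by -0.65 (SE 0.11, adjusted p = 0.000116), both without overlap. Syk differed by -0.42 (SE 0.12, adjusted p = 0.015), Btk by -0.53 (SE 0.16, adjusted p = 0.023) and Plcg2 by -0.43 (SE 0.12, adjusted p = 0.0117). The other called members were Grb2, Vav1 (a guanine nucleotide exchange factor), Prkcb (protein kinase C beta), Dapp1 (an adaptor that binds phosphoinositides) and Pik3r1 (the regulatory subunit of phosphoinositide 3-kinase), with differences from -0.65 for Grb2 to -0.35 for Pik3r1.

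The 10 activating genes that were not called lay along the whole chain, from Blk to the NFAT factors. Bcl10 (0.01, interval -0.13 to 0.15) had a narrow interval around 0. Malt1 (-0.39), Nfatc2 (-0.36), Pik3cg (-0.54, the gamma catalytic subunit of phosphoinositide 3-kinase) and Pik3ap1 (-0.29, its adaptor BCAP) were lower without passing the test, with adjusted p of 0.0953 for Pik3cg to 0.431 for Pik3ap1. Blk, a Src family kinase, differed by -0.22, Vav3 by -0.19, Pik3cd by -0.05, Nfatc1 by 0.14 and Vav2 by 0.31, with adjusted p of 0.198 or more.

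Among inhibitory genes, Siglecg, a sialic acid receptor that restrains B1 cells in particular, had -1.31, 0.02, -0.79, -0.37 and -0.44 in WT_Ctrl and -1.96, -2.07, -1.44, -1.88 and -2.08 in KO_Ctrl. Wild-type values spread widely, yet all lay above the knockout values, and the difference was -1.31 (SE 0.22, adjusted p = 0.000156). This was the largest difference among the 34 members. Csk, the kinase that switches off Src family kinases, fell by 0.72 (SE 0.12, adjusted p = 0.00015) and Pirb, an inhibitory receptor for MHC class I, by 0.59 (SE 0.15, adjusted p = 0.00831), both without overlap. Cd22 differed by -0.51 (SE 0.15, adjusted p = 0.0184), Ptpn6 by -0.53 (SE 0.17, adjusted p = 0.0337), Cd72 by -0.47 (SE 0.16, adjusted p = 0.0447) and Inpp5d by -0.36 (SE 0.11, adjusted p = 0.0338). Cblb, a ubiquitin ligase (-0.44, adjusted p = 0.123), and Ptpn22 (-0.25, adjusted p = 0.453) were not called.

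**Figure D2:**
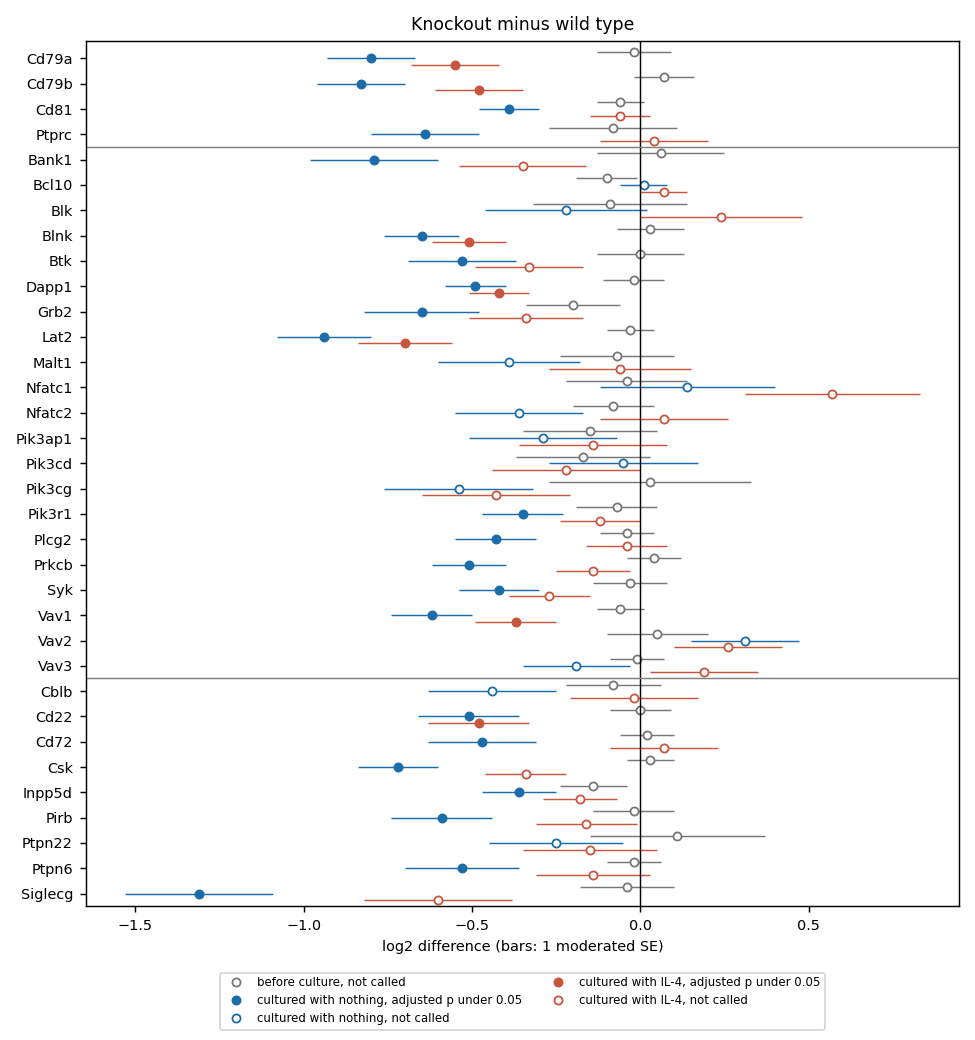
Difference knockout minus wild-type (log2 scale, horizontal axis) for each of the 34 members by role, before culture, after culture without IL-4 and after culture with IL-4. Points are estimates, bars are 1 SE, and filled points have an adjusted p under 0.05: 0 before culture, 22 without IL-4 and 7 with IL-4.

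Markers of B cells that are not members moved in the same comparison: 4 of 5 (Ms4a1 -1.34, Fcer2a -0.76, Cr2 -0.62, Pax5 -0.57) were called lower and Ebf1 (-0.36, adjusted p = 0.169) was not. The call of Fcer2a was lost in 10 of 23 alternatives and that of Dock10 (-0.54, adjusted p = 0.0295) in 8. Over all 8 B cell markers measured, of which Cd79a, Cd79b and Blnk are members, the median log2 ratio in an array was -0.82 to -0.41 in WT_Ctrl and -1.22 to -1.01 in KO_Ctrl. T cell markers had a median difference of -0.56 with 1 of 9 called lower, and macrophage markers of 0.03 with 1 of 14 called in each direction. Erythroid markers had a median difference of 0.63 with 1 of 6 called higher, and their medians per array did not overlap (-0.90 to -0.51 in WT_Ctrl and -0.28 to 0.40 in KO_Ctrl). NK cell markers had a median difference of 0.32 with 1 of 8 called higher. The first spike-in control, which should not depend on the cells, ranged from -0.59 to 0.403 in WT_Ctrl and from 0.029 to 0.939 in KO_Ctrl. With it as a covariate, an alternative chosen after seeing the data, 16 members were called. The part of marker levels in the members' fall was not tested.

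Quantile normalization between arrays, which gives every array the same spread, left 7 of the 22 calls (Cd79a, Cd79b, Lat2, Blnk, Prkcb, Siglecg and Csk). A fit of the 2 groups alone gave 15 calls. It lost Cd81 (adjusted p = 0.0619), Plcg2 (0.0735), Btk, Pik3r1, Cd22, Cd72, Inpp5d and Ptpn6, and added Pik3cg (0.0147). Calls near the threshold also rested on single arrays: without WT_Ctrl 7 there were 16, with Syk at an adjusted p of 0.0572, Cd22 at 0.064, Ptpn6 at 0.129, Cd72 at 0.166, Inpp5d at 0.0817 and Pik3r1 at 0.0768, and Btk lost its call without WT_Ctrl 9, KO_Ctrl 7 or KO_Ctrl 10 (0.0631, 0.0969 and 0.0536). Cd22 was also lost without KO_Ctrl 9 (0.0508), Pik3r1 without 7 of the 10 arrays in turn (up to 0.11), Cd72 without 7 (up to 0.166), Inpp5d without 6 (up to 0.108) and Ptpn6 without 6 (up to 0.129). Cblb was called without WT_Ctrl 6 (-0.55, adjusted p = 0.0466).

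The probes of a gene did not always tell the same story. Of the 2 Syk probes, 1 differed by -0.86 (adjusted p = 0.000183) and the other by 0.02 (adjusted p = 0.945). Of the 3 Pirb probes, the differences were -1.21, -0.60 and 0.06, with only the first called, and Pirb has near-identical Pira relatives whose RNA the probes may also bind. The 2 Nfatc2 probes differed by 0.46 (not called) and -1.19 (adjusted p = 4.74e-06), so the mean of -0.36 describes neither. The probes may lie in different transcripts of a gene, which was not tested.

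With IL-4 in the culture, 7 of the 34 members were lower in knockout cells and 0 were higher, against 9.85% of all genes called lower, 8.57% higher and 18.4% in either direction. They were the receptor genes Cd79a and Cd79b, the activating genes Lat2, Blnk, Dapp1 and Vav1, and the inhibitory receptor Cd22, and all 7 had also been called lower without IL-4. The median difference was -0.15 over members and -0.08 over all genes. The groups did not overlap, with knockout lower, for 8 members, against 11.6% of all genes.

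Cd79a had log2 ratios of -0.79, -0.55, -0.42, -0.51 and -0.48 in WT_IL4 6 to 10 and of -0.99, -0.92, -0.86, -1.30 and -1.45 in KO_IL4 6 to 10. The groups were apart by a small gap, with a difference of -0.55 (SE 0.13, adjusted p = 0.00515). Cd79b had -0.07, 0.19, -0.03, -0.15 and -0.09 against -0.42, -0.38, -0.30, -0.64 and -0.80, a difference of -0.48 (SE 0.13, adjusted p = 0.0132). Lat2 had -0.44, 0.17, -0.18, -0.10 and -0.08 against -0.85, -0.76, -0.57, -0.92 and -1.02, a difference of -0.70 (SE 0.14, adjusted p = 0.00132). In all 3 genes every knockout array was below every wild-type array. Blnk differed by -0.51 (SE 0.11, adjusted p = 0.00233), Dapp1 by -0.42 (SE 0.09, adjusted p = 0.002), Vav1 by -0.37 (SE 0.12, adjusted p = 0.0347) and Cd22 by -0.48 (SE 0.15, adjusted p = 0.0268).

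The remaining members were not called. Syk differed by -0.27 (interval -0.51 to -0.02, adjusted p = 0.115), Btk by -0.33 (-0.66 to -0.01, adjusted p = 0.143), Plcg2 by -0.04 (-0.29 to 0.20) and Ptpn6 by -0.14 (-0.49 to 0.21). Ptprc, lower without IL-4, differed by 0.04 (-0.30 to 0.38), and Cd81 by -0.06 (-0.25 to 0.12). Siglecg differed by -0.60 (adjusted p = 0.0619) and Csk by -0.34 (adjusted p = 0.0538), just short of the threshold. Nfatc1, the transcription factor that calcium activates, had -0.45, -0.28, -0.53, -0.37 and -0.38 in WT_IL4 and 0.77, -0.18, 0.01, 0.21 and 0.01 in KO_IL4. All its knockout arrays were higher, by 0.57 on average, though the adjusted p was 0.127.

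The count with IL-4 moved with the processing. The fit shares its spread with the arrays before culture, and without those numbered 10 there were 10 calls here, adding Pik3cg, Siglecg and Csk, and 23 without IL-4, adding Pik3cg. Quantile normalization left 1 call (Dapp1), the spike-in covariate 3, and a fit of the 2 groups alone gave 10 lower and 1 higher. Without KO_IL4 10, which was the lowest of its group for 18 members, 4 calls were made. Cd79b was then at an adjusted p of 0.0513, Vav1 at 0.0904 and Cd22 at 0.0713. The latter 2 were lost without several other arrays too (Vav1 at up to 0.0888, Cd22 at up to 0.0723). Without WT_IL4 6, Grb2, Siglecg and Csk were also called (adjusted p = 0.0344, 0.0231 and 0.0138), which gave 10. Csk was called as well without KO_IL4 8 (adjusted p = 0.0416). Of the 9 T cell markers, 4 were lower and 1 higher in KO_IL4, with a median of -1.31 and medians per array of -0.19 to 1.89 in WT_IL4 and -0.18 to 0.46 in KO_IL4, and of the 5 B cell markers that are not members, Cr2 was called higher (0.57) and the others were not called. Their part in the members' values was not tested.

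**Figure D3:**
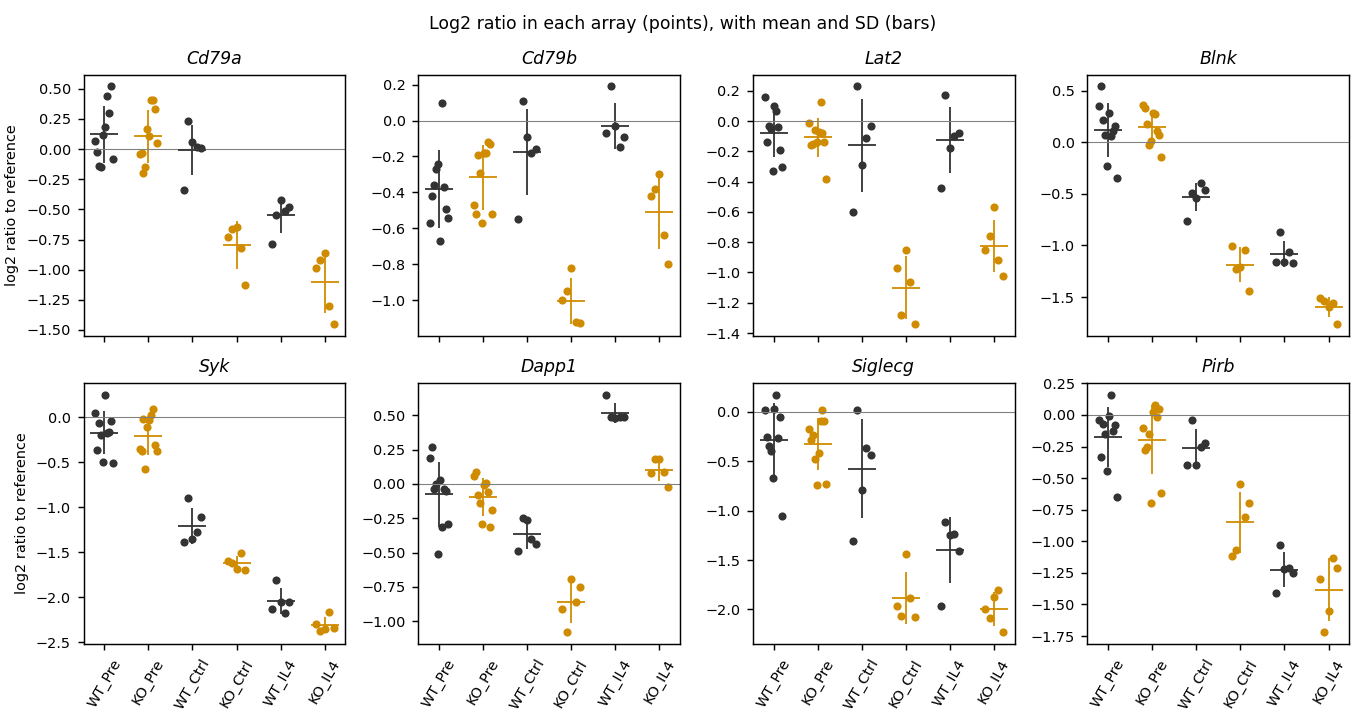
Log2 ratio to the common reference for Cd79a, Cd79b, Lat2, Blnk, Syk, Dapp1, Siglecg and Pirb in every array, by group, with the mean and SD of each group as bars. Knockout points lie below wild-type points without IL-4 in all 8 genes, and Dapp1 alone of the 8 is above its values without IL-4 in both genotypes.

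The effect of IL-4 itself was measured within each genotype. In wild-type cells 16 members were lower and 1 was higher with IL-4 than without, while over all genes 11.4% were lower, 15.5% higher and 26.9% called in either direction. The receptor class gave 3 of 4 lower, the activating class 7 of 21 lower and 1 higher, and the inhibitory class 6 of 9 lower. The median difference was -0.30 over members and 0.12 over all genes, and 10 members were lower without overlap against 8.52% of all genes.

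Of the receptor genes, Ptprc had log2 ratios of -1.39, -0.72, -1.0, -0.92 and -1.04 in WT_Ctrl and -2.12, -1.61, -1.68, -1.50 and -1.50 in WT_IL4. Number 6 was the lowest in both groups, and the groups did not overlap, with a difference of -0.67 (SE 0.16, adjusted p = 0.00345). Cd81 fell by 0.65 (SE 0.09, adjusted p = 5.81e-06) and Cd79a by 0.55 (SE 0.13, adjusted p = 0.00332), both without overlap. Cd79b did not follow its partner, at 0.14 (interval -0.13 to 0.41, adjusted p = 0.432).

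Of the activating genes, Dapp1 had -0.49, -0.25, -0.26, -0.40 and -0.44 in WT_Ctrl and 0.65, 0.49, 0.48, 0.49 and 0.49 in WT_IL4. It was the only member that rose, by 0.89 (SE 0.09, adjusted p = 2.52e-08), and its arrays with IL-4 lay within a narrow band. Syk had -1.39, -0.90, -1.35, -1.28 and -1.11 in WT_Ctrl and -2.13, -1.81, -2.05, -2.17 and -2.05 in WT_IL4, and fell by 0.83 (SE 0.12, adjusted p = 8.01e-06). Both Syk probes fell, by 1.05 and 0.61. Blk fell by 0.75 (SE 0.24, adjusted p = 0.0208) and Nfatc2 by 0.73 (SE 0.19, adjusted p = 0.0047), followed by Plcg2, Blnk, Bank1 and Prkcb with differences of -0.56 to -0.48. Btk (-0.19, adjusted p = 0.375), Lat2 (0.03) and Vav1 (0.03) were not called.

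Of the inhibitory genes, Pirb had -0.40, -0.04, -0.40, -0.25 and -0.22 in WT_Ctrl and -1.41, -1.03, -1.22, -1.21 and -1.25 in WT_IL4. The groups were widely apart, and Pirb fell by 0.96 (SE 0.15, adjusted p = 3.57e-05) that all 3 probes shared (-1.30, -0.79 and -0.79, each called). Cd72, a lectin-like receptor, fell by 0.93 (SE 0.16, adjusted p = 0.000105) and Siglecg by 0.82 (SE 0.22, adjusted p = 0.00807), each with overlap. Cblb, Ptpn22 and Csk differed by -0.65, -0.63 and -0.39. Cd22 (-0.09), Ptpn6 (-0.22) and Inpp5d (0.12) were not called.

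**Figure D4:**
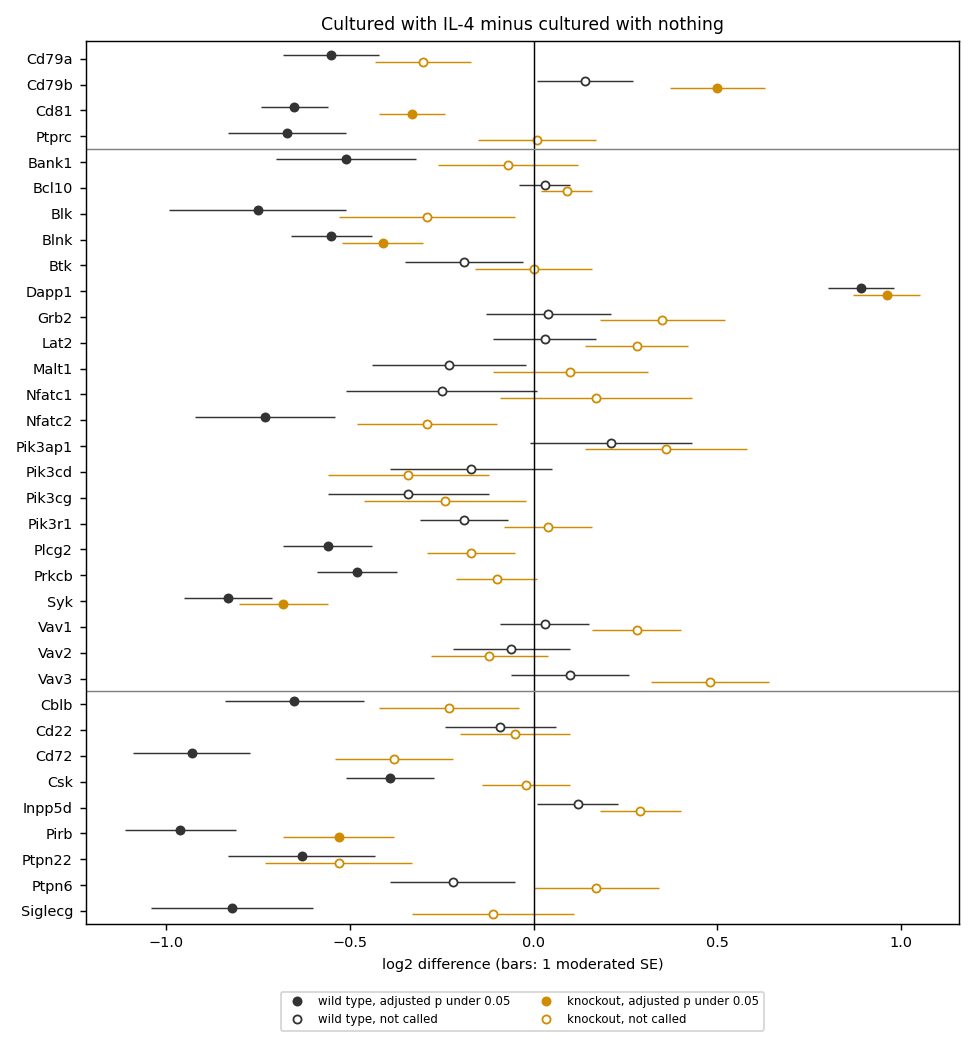
Difference with IL-4 minus without (log2 scale, horizontal axis) for each of the 34 members by role, in wild-type and in knockout cells. Points are estimates, bars are 1 SE, and filled points have an adjusted p under 0.05: 17 in wild-type and 6 in knockout cells.

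Leaving out 1 array at a time gave 15 to 17 calls in wild-type cells. Bank1 lost its call without any of 7 arrays (adjusted p of up to 0.117, without WT_IL4 6), Csk without WT_Ctrl 7, WT_Ctrl 10 or WT_IL4 6 (0.0636, 0.0501 and 0.0703), and Blk without WT_Ctrl 7 (0.0635). Of the 5 B cell markers that are not members, Cr2 was called lower (-1.91) and Fcer2a differed by 0.00 (adjusted p = 0.991), while 3 of 8 NK cell markers were called higher, with medians per array of -2.20 to -1.08 in WT_Ctrl and -1.11 to -0.41 in WT_IL4. Their part in the members' values was not tested. Dock10 rose by 2.16 (SE 0.17, adjusted p = 4.97e-10).

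In knockout cells IL-4 left 4 members lower and 2 higher, against 4.39% of all genes lower, 4.00% higher and 8.40% in either direction. The median difference was -0.06 over members and 0.02 over all genes. Dapp1 had -0.91, -1.08, -0.69, -0.86 and -0.75 in KO_Ctrl and 0.08, 0.18, 0.18, 0.09 and -0.02 in KO_IL4, a rise by 0.96 (SE 0.09, adjusted p = 2.04e-08) without overlap. Cd79b rose by 0.50 (SE 0.13, adjusted p = 0.0174), also without overlap. Syk had -1.60, -1.62, -1.69, -1.51 and -1.70 in KO_Ctrl and -2.30, -2.37, -2.35, -2.16 and -2.34 in KO_IL4. It fell by 0.68 (SE 0.12, adjusted p = 0.000338) with tight arrays in both groups. Blnk fell by 0.41 (SE 0.11, adjusted p = 0.0185), Pirb by 0.53 (SE 0.15, adjusted p = 0.0274) and Cd81 by 0.33 (SE 0.09, adjusted p = 0.0232). Ptprc (0.01, interval -0.33 to 0.35), Siglecg (-0.11, -0.57 to 0.35) and Plcg2 (-0.17, -0.41 to 0.08), all lower with IL-4 in wild-type cells, were not called here.

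Of these 6 calls, only those of Syk and Dapp1 held when each array was left out in turn. Cd79b was lost without KO_IL4 7 or 8 (adjusted p = 0.0535 and 0.0617), Blnk without KO_Ctrl 9 or KO_IL4 10 (0.0521 and 0.0507), Cd81 without KO_Ctrl 8, KO_Ctrl 9 or KO_IL4 6 (0.0572, 0.0624 and 0.073) and Pirb without 5 arrays (up to 0.0974), and without KO_Ctrl 9 there were 3 calls. Vav3 was called without KO_Ctrl 7 or KO_IL4 9 (adjusted p = 0.0338 and 0.0236). Quantile normalization left 1 call, that of Dapp1. The same mice gave both cultures, and with the mouse as a block 9 members were called, adding Vav3 (0.48, adjusted p = 0.031), Cd72 (-0.38, adjusted p = 0.0242) and Inpp5d (0.29, adjusted p = 0.0341). Dock10 rose by 1.64 (adjusted p = 1.63e-07). Fcer2a differed by 0.80 (adjusted p = 0.0451), a call lost in 15 of 23 alternatives, among them the mouse as a block and leaving out any of 9 of the 10 arrays (adjusted p of 0.0102 to 0.525 over the 23).

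Whether the 2 IL-4 effects differ was tested directly, as the effect in knockout minus that in wild-type cells. No member was called, against 0.585% of all genes lower, 0.608% higher and 1.19% of all genes, and 7 had an unadjusted p under 0.05, against 16.3% of all genes. The median of the difference was 0.32 over members and -0.09 over all genes. The values were highest for Siglecg (0.71, interval 0.06 to 1.36, adjusted p = 0.264) and Ptprc (0.68, 0.20 to 1.16, adjusted p = 0.136), and Ptprc was called without KO_Ctrl 8 (0.79, adjusted p = 0.0391). For Dapp1 the difference was 0.07 (-0.19 to 0.33) and for Syk 0.15 (-0.19 to 0.50). More members were called in wild-type cells, yet with all arrays the difference between the IL-4 effects was called for no single member.

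Culture without cytokine was compared with the state before it in mice 6 to 10. In wild-type cells 11 members were lower and 1 was higher after 18 h, while over all genes 26.4% were lower, 13.2% higher and 39.5% called in either direction. The share of members was thus close to the background. The median difference was -0.24 over members and -0.15 over all genes. In knockout cells 26 members were lower and 0 higher, against 31.2% of all genes lower, 19.8% higher and 51.0% in either direction, with a median of -0.73 over members and -0.12 over all genes. All 4 receptor genes, 14 of 21 activating and 8 of 9 inhibitory genes were called there, and 21 members were lower without overlap against 16.3% of all genes. Both comparisons with cells before culture share the reference pool, as all arrays do, and that pool is described as KO_Pre cells of these mice.

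Pik3r1 fell the most in both genotypes. It had 0.26, -0.24, -0.12, -0.22 and 0.12 in WT_Pre 6 to 10 and -1.62, -1.44, -1.37, -1.34 and -1.59 in WT_Ctrl, and fell by 1.43 (SE 0.12, adjusted p = 1.17e-09). It had 0.30, 0.27, 0.01, -0.20 and -0.20 in KO_Pre and -1.82, -1.84, -2.02, -1.79 and -1.66 in KO_Ctrl, and fell by 1.86 (SE 0.12, adjusted p = 2.84e-12). The groups were more than 1 log2 unit apart at their nearest arrays in both genotypes. Pik3cg, the gamma catalytic subunit, followed (-1.12 in wild-type and -1.82 in knockout cells). The delta catalytic subunit Pik3cd was not called in either genotype (0.02 and 0.09). With the dark corner ratio as covariate, an alternative chosen after seeing the data, Pik3cd was called higher in both (0.63, adjusted p = 0.0314, and 1.05, adjusted p = 0.00403), as were Blk and Nfatc1 in both and Btk in wild-type cells. The counts were then 5 lower and 4 higher in wild-type and 14 lower and 3 higher in knockout cells, and Pik3cg was not called in wild-type cells (-0.42, adjusted p = 0.0935). Syk fell by 1.08 (SE 0.12, adjusted p = 1.4e-07) in wild-type and by 1.5 (SE 0.12, adjusted p = 1.52e-10) in knockout cells.

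Ptprc fell by 0.81 (adjusted p = 0.000445) in wild-type cells, and it fell by 1.52 (adjusted p = 3.51e-08) in knockout cells. Cd79a (-0.27, adjusted p = 0.108) and Cd79b (0.22, adjusted p = 0.186) were not called in wild-type cells and fell by 1.06 (adjusted p = 4.01e-07) and 0.78 (adjusted p = 2.64e-05) in knockout cells. Cd81 differed by -0.19 (adjusted p = 0.094) and -0.47 (adjusted p = 0.000136).

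Of the inhibitory genes, Ptpn6 and Csk were called lower in wild-type cells (-0.51, adjusted p = 0.0196, and -0.35, adjusted p = 0.0274), and Ptpn22 was the 1 member called higher (0.51, adjusted p = 0.0427). In knockout cells Siglecg fell by 1.62 (SE 0.22, adjusted p = 1.7e-06), Csk by 1.1 (SE 0.12, adjusted p = 5.53e-08) and Ptpn6 by 1.1 (SE 0.17, adjusted p = 7.54e-06). The members called lower in both genotypes were 11: Ptprc, Syk, Blnk, Dapp1, Pik3ap1, Pik3r1, Pik3cg, Bcl10, Malt1, Ptpn6 and Csk.

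The difference between the culture effects, knockout minus wild-type, was called for 10 members, all in the direction of a deeper fall in knockout cells, against 4.46% of all genes lower, 2.22% higher and 6.68% in either direction. The receptor genes were Cd79b (-1.0, SE 0.19, adjusted p = 0.00123) and Cd79a (-0.79, SE 0.19, adjusted p = 0.00965). The activating genes were Bank1 (-1.03, SE 0.26, adjusted p = 0.0147), Lat2 (-0.91, SE 0.20, adjusted p = 0.00417), Blnk (-0.72, SE 0.15, adjusted p = 0.00391), Vav1, Prkcb and Dapp1. The inhibitory genes were Siglecg (-1.28, SE 0.32, adjusted p = 0.0122) and Csk (-0.76, SE 0.17, adjusted p = 0.00677). The median was -0.49 over members and 0.05 over all genes. This contrast shares the 2 cultured groups with the genotype comparison without IL-4, so its values are not separate evidence.

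**Figure D5:**
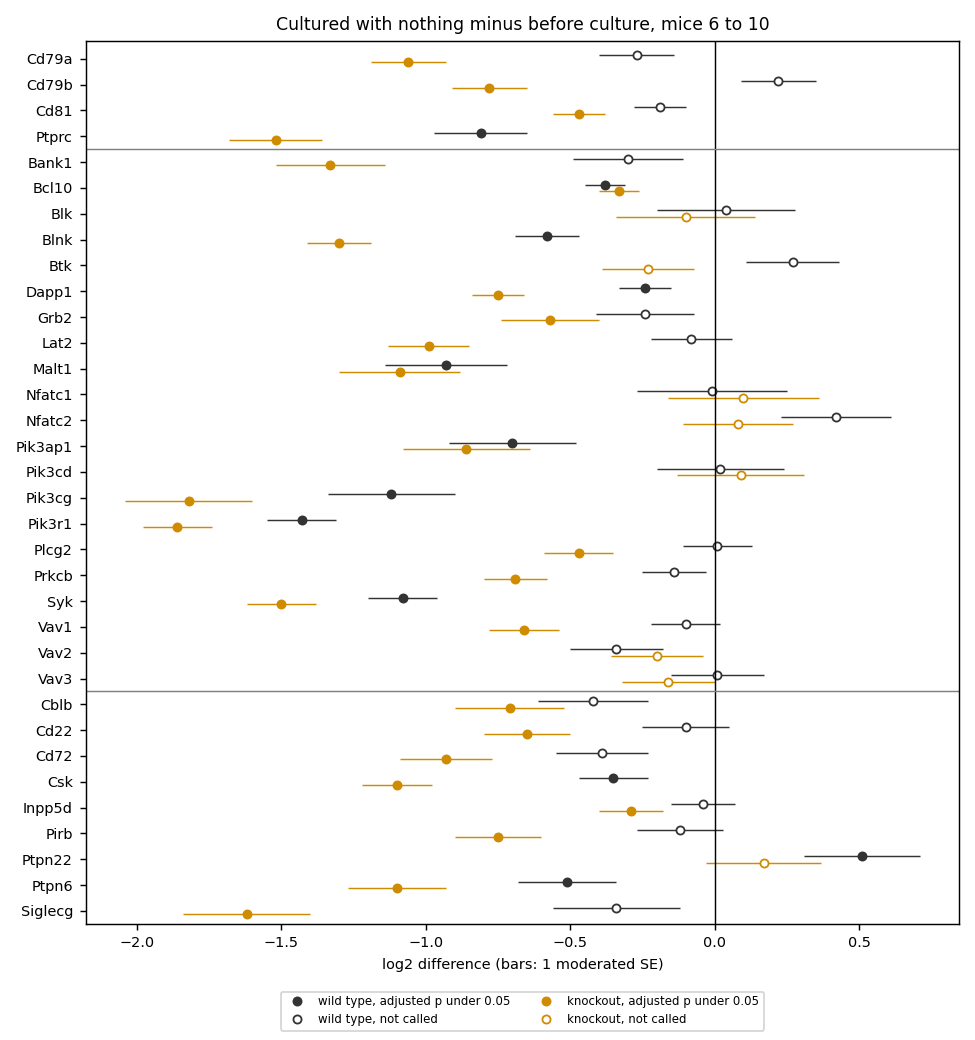
Difference after culture without cytokine minus before culture (log2 scale, horizontal axis) for each of the 34 members by role, in wild-type and in knockout cells of mice 6 to 10. Points are estimates, bars are 1 SE, and filled points have an adjusted p under 0.05: 12 in wild-type and 26 in knockout cells.

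The culture results rest in part on the arrays before culture numbered 10, which went against their labels. Without both of them, 19 members were called in wild-type cells (17 lower and 2 higher), 27 in knockout cells and 12 for the difference. The wild-type cells then gained Cd79a (-0.36, adjusted p = 0.0289), Cd81 (-0.24, adjusted p = 0.0359), Bank1, Cd72, Siglecg, Cblb (all lower) and Nfatc2 (higher), the knockout cells Vav2 (-0.36, adjusted p = 0.0322), and the difference gained Ptprc, Pik3cg and Pirb and lost Vav1 (adjusted p = 0.0615). Without WT_Ctrl 6, 8 members were called in wild-type cells, and without WT_Pre 10 alone 18. The difference had 8 calls without WT_Pre 10 and 15 without KO_Pre 10. Median centring of the arrays moved the median of all genes by 0.13 in the wild-type and 0.10 in the knockout comparison, and quantile normalization by 0.17 and 0.15. Relative to it the wild-type calls were 8 lower and 4 higher under median centring and 7 lower and 3 higher under quantile normalization, in which the difference between genotypes had 0 calls. With the mouse as a block, wild-type cells gave 13 lower and 3 higher, adding Cd79a, Cd72, Cd79b and Nfatc2, the last 2 of them higher, and the difference had 13 calls, adding Plcg2, Cd72 and Ptpn6.

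Among wild-type calls after culture, those of Dapp1, Ptpn22, Csk and Ptpn6 depended on single arrays. Dapp1 was lost without any of 6 arrays (adjusted p of up to 0.0933), Ptpn22 without any of 7 (up to 0.166), Csk without WT_Pre 6, 7 or 8 or WT_Ctrl 6 (up to 0.118) and Ptpn6 without WT_Ctrl 6 (0.0824). In knockout cells Inpp5d was lost without any of 6 arrays (up to 0.116), and in the difference Vav1 without any of 15 (up to 0.0988) and Prkcb without any of 8 (up to 0.0607). The 2 Nfatc2 probes were called in opposite directions in both genotypes (1.45 and -0.61 in wild-type, 1.80 and -1.65 in knockout cells). Of 9 dendritic cell markers 7 were lower after culture in wild-type and 6 in knockout cells (medians -2.08 and -1.76), and of 14 macrophage markers 8 and 5 were lower and 1 and 3 higher (medians -0.86 and -0.43). NK cell markers were lower for 7 of 8 in each genotype (medians -2.27 and -1.31), with 1 higher in knockout cells. All 5 B cell markers that are not members fell in knockout cells (median -1.20), and 2 of 5 in wild-type cells (median -0.61). For the difference between culture effects, erythroid markers had a median of 1.22 (2 of 6 called higher) and macrophage markers of 0.83 (1 of 14 higher). The medians there were 0.73 for NK cell markers (0 of 8 called) and -0.66 for these B cell markers (1 of 5 lower). The part of these in the members' values was not tested.

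The 4 members called in no comparison were Nfatc1, Pik3cd, Vav2 and Vav3.

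Other genes of the pathway, 90 listed and 73 measured, serve as a wider view. Before culture 0 were called. Without IL-4, 19 were lower in knockout cells and 4 higher, with a median of -0.24, against 8.43% of all genes lower and 6.87% higher. The lowest were the Src family kinase Fgr (-1.28, adjusted p = 3.31e-05), the calcium channel Itpr3 (-0.95, adjusted p = 3.38e-06) and Fcgr2b (-0.95, adjusted p = 3.18e-05), the inhibitory Fc receptor. The highest were the AP-1 subunits Jun (1.35, adjusted p = 0.0127) and Fos (0.84, adjusted p = 0.0345) and the kinase Fyn (0.49, adjusted p = 0.0369). With IL-4, 18 were lower and 4 higher, against 9.85% and 8.57% of all genes, from Sla (-1.56), Pik3r3 (-1.44) and Pag1 (-1.10) to Tec (0.48), Cr2 (0.57) and Rac3 (0.60).

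IL-4 in wild-type cells lowered 18 of the 73 and raised 13, against 11.4% of all genes lower and 15.5% higher. The complement receptor Cr2 (-1.91), a co-receptor of the B cell receptor, and the Fc receptor-like genes Fcrl1 (-1.79) and Fcrla (-1.67) were lowest, and Pag1, a membrane adaptor that recruits Csk (1.99), Prkca (1.48) and Sos1 (1.09) highest. In knockout cells, where 4.39% of all genes were lower and 4.00% higher, it lowered 11, led by Fcrl1 (-1.45), Rasgrp3 (-1.41) and Fcrla (-1.27), and raised 8, led by Prkca (1.64), Pag1 (1.37) and Ppp3cc (0.74). The difference between the IL-4 effects was called for Cr2 (1.19, SE 0.23, adjusted p = 0.0126) and for no other gene of the 73. Culture lowered 23 and raised 5 in wild-type cells, and lowered 37 and raised 8 in knockout cells. Over all genes, 26.4% were lower and 13.2% higher in wild-type cells, and 31.2% and 19.8% in knockout cells. Fos fell the most in both (-7.63 and -6.09), then Jun (-3.71) and Cr2 (-2.25) in wild-type and Cr2 (-2.88) and Pag1 (-2.74) in knockout cells. The highest were Fcrla (0.68), Inppl1 (0.67) and Tec (0.53) in wild-type and Inppl1 (1.03), Tec (0.78) and Sos2 (0.64) in knockout cells. The difference between these culture effects was called for 13 genes, against 6.68% of all genes, 12 of them lower, led by Fgr (-1.30), Fcgr2b (-1.16) and Itpr3 (-0.88), and 1 higher, Fos (1.54).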

How the data were processed

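RNA of spleen B cells was measured on 40 Agilent arrays with 2 dyes, test sample in Cy5 and a common reference in Cy3. The submitters' processing notes name Agilent Feature Extraction 11.0.1.1 and GeneSpring GX. Each deposited value is the log2 ratio of test over reference for 1 probe on 1 array. Their scale was read from the spike-in probes and their direction from the dyes in the labels. How the authors normalized, centred or filtered them is not stated in the sources used here, and neither intensities nor slides were used here, so a dim probe cannot be told from a bright one. The number of arrays limits the precision.

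Of 39485 probes, 30625 had 1 gene symbol in the platform annotation and 8804 had none. Probes were averaged to 21892 genes with 0 missing values, without further normalization or filter. Genes were tested by limma 3.58.1 under R 4.3.3 (eBayes, Benjamini-Hochberg over all genes) and called at an adjusted p under 0.05. KO_Pre and WT_Pre were compared in 20 arrays (n = 10 each), and the other 8 comparisons came from 1 fit of 30 arrays of mice 6 to 10 (n = 5 per group). Intervals are at 95%. The pipeline was tested on simulated data.

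The members and all lists were chosen with earlier results of these data known. In each comparison and role class, up to 3 called members per direction were named by size of difference, with 8 core members named in every genotype comparison. The same held for the wider pathway list, and Dock10 and Fcer2a were always named. Sequences are RefSeq promoters.

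Pairing was checked on residuals. Arrays of equal number in the 2 genotypes before culture correlated at 0.225 to 0.543, and with the number as a block still 0 members were called. Without IL-4 equal numbers correlated at -0.171 to 0.169, against a mean of -0.0104 for other numbers. With IL-4 they correlated at 0.0911 to 0.299, against -0.0469, and 4 of 5 arrays matched their own number best. The reported fit did not treat equal numbers as pairs. With the number as a block, 10 members were called with IL-4, against 7 as reported. Within a genotype the labels give the same mouse in each state. Alternatives were other scalings, filters, fits, blocks and each array left out.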

Additional observations from a re-analysis of the deposited data

Results flagged for a closer look

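Arrays that lay far from the others of their group were found with Dixon's test at the 95% level in 13 of 204 combinations of member and group, and chance alone gives about 1 in 20. Of these, 4 were the lowest values of KO_IL4 10: Blk at -1.18, Btk at -0.56, Pik3cg at -2.12 and Plcg2 at -1.12. In WT_IL4, Cd81 was highest in array 8 (-0.49), Dapp1 in array 6 (0.65), and Cd72 (-0.81) and Ptpn6 (-0.39) in array 7. In WT_Ctrl, Plcg2 was highest in array 7 (-0.03) and Vav3 lowest in array 6 (-0.44). Ptprc was highest in KO_Ctrl 8 (-1.23), Malt1 highest in KO_Pre 3 (0.56) and Inpp5d lowest in WT_Pre 5 (-0.60). All values are log2 ratios to the common reference.

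The culture effect differed between the genotypes, by limma's test of that difference, for 10 members, with the log2 difference of knockout minus wild-type effects at -0.79 for Cd79a, -1.0 for Cd79b, -0.72 for Blnk, -1.03 for Bank1, -0.51 for Dapp1, -0.91 for Lat2, -0.55 for Prkcb, -0.56 for Vav1, -1.28 for Siglecg and -0.76 for Csk.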

How the results depend on the processing

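The number of members called moved by over 1.5 times as follows. Quantile normalization gave 7 (22 as reported) for KO_Ctrl vs WT_Ctrl, 1 (7) for KO_IL4 vs WT_IL4, 1 (6) for KO_IL4 vs KO_Ctrl, 16 (26) for KO_Ctrl vs KO_Pre and 0 (10) for the difference between culture effects. Testing only the more variable genes, those whose SD exceeded the median SD, gave 7, 2, 8, 1, 7, 14 and 2 for KO_Ctrl vs WT_Ctrl, KO_IL4 vs WT_IL4, WT_IL4 vs WT_Ctrl, KO_IL4 vs KO_Ctrl, WT_Ctrl vs WT_Pre, KO_Ctrl vs KO_Pre and the difference between culture effects, and by construction it tested fewer members. Array weights gave 12 for KO_IL4 vs WT_IL4, 4 (0) for the difference between IL-4 effects, 19 (12) for WT_Ctrl vs WT_Pre and 20 for the difference between culture effects. Probes tested alone gave 11 for KO_IL4 vs WT_IL4 and 1 for the difference between IL-4 effects, and a fit of only the compared groups gave 11 for KO_IL4 vs WT_IL4. Of the alternatives chosen after seeing the data, the spike-in ratio as covariate gave 3 for KO_IL4 vs WT_IL4 and 5 for the difference between culture effects, and the dark corner ratio as covariate 17 for KO_Ctrl vs KO_Pre. Without wild-type mouse 6, WT_Ctrl vs WT_Pre had 7, and without the arrays before culture numbered 10 it had 19. With each array left out in turn the counts were 16 to 23 for KO_Ctrl vs WT_Ctrl, 4 to 10 for KO_IL4 vs WT_IL4, 15 to 17 for WT_IL4 vs WT_Ctrl, 3 to 7 for KO_IL4 vs KO_Ctrl, 0 to 1 for the difference between IL-4 effects, 8 to 18 for WT_Ctrl vs WT_Pre, 25 to 27 for KO_Ctrl vs KO_Pre and 8 to 15 for the difference between culture effects. Among reported calls, the direction turned for Pik3ap1 in WT_Ctrl vs WT_Pre (0.06) and KO_Ctrl vs KO_Pre (0.33) with the dark corner ratio as covariate. With this covariate it also turned for Inpp5d in KO_Ctrl vs KO_Pre (0.14). Under quantile normalization the direction turned for Plcg2 in KO_Ctrl vs KO_Pre (0.01). In mice 6 to 10, the dark corner ratio was 0.141 to 1.078 before culture, apart from WT_Pre 10 (-0.907) and KO_Pre 10 (-0.856). In the cultured arrays it was -1.79 to -0.206, so in these mice it nearly follows the state. The part of the arrays before culture numbered 10 in the turns with this covariate was not tested. There were 2754 values of named members, Dock10 and Fcer2a under an alternative. Of these, 2457 were counted as the same, 291 lost the call, 2 gained it and 4 turned. Values not called in either fit were counted as the same whatever their direction. Some of them changed sign, such as Plcg2 in KO_IL4 vs WT_IL4 (-0.08 to 0.15 over the alternatives). The mouse number as a block between genotypes gave 0 before culture, 22 without IL-4 (losing Pik3r1 and adding Pik3cg) and 10 with IL-4 (adding Nfatc1, Siglecg and Csk), and the mouse as a block left 17, 0 and 26 calls for the IL-4 effect in wild-type cells, the difference between IL-4 effects and the culture effect in knockout cells; beyond these and the values given with the results, among the named members, Dock10 and Fcer2a it removed only the call of Fcer2a for KO_IL4 vs KO_Ctrl. Beyond the filter, the causes were not tested.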
